A study of Mus musculus with 8 samples.

Results

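Nptx1, Nptx2, Homer1, Nrn1, Inhba, Gadd45b, Gadd45g, Dusp1, Dusp6 and Scg2 are effector genes of the later wave of activity-regulated transcription in neurons. CpG methylation over these 10 genes was compared between mice after cocaine self-administration and mice of the saline arm. The genes were taken as listed, and all 10 of them carried measured cytosines, among 18606 protein-coding genes that did. A cytosine belonged to a gene when it lay inside the gene's mm10 span or within 5 kb of it and had at least 10 reads in all 8 libraries. Methylation was read by reduced representation bisulfite sequencing, which covers restriction fragments rich in CpGs and in which bisulfite leaves methylated cytosines unconverted. DNA came from the dissected dDG DGC layer, taken to mean the layer of granule cells in the dorsal dentate gyrus, of male C57 BL/6 mice, with 4 cocaine mice, 4 saline mice and 1 library per mouse. The sources used here do not give the mice's age, the cocaine dose or the time between the last session and dissection. In a dissected layer, a change of methylation within cells and a change in the mix of cells cannot be told apart.

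Activity in neurons first induces transcription factors such as Fos and Egr1, and these, with CREB, then drive effector genes that reshape synapses. Nptx1 and Nptx2 encode secreted neuronal pentraxins that gather AMPA receptors at synapses. Inhba encodes a subunit of the secreted ligand activin A, Scg2 encodes a granin of dense-core vesicles and Nrn1 encodes neuritin, a surface-anchored protein that promotes neurite growth. Homer1 encodes a postsynaptic scaffold with a short activity-induced form, Gadd45b and Gadd45g encode stress-response proteins linked to DNA demethylation, and Dusp1 and Dusp6 encode phosphatases that switch off MAP kinases. CREB binds the cyclic AMP response element, whose core letters contain a CpG, and CpG methylation there is known to reduce binding.

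The libraries listed 1844706 to 2236384 cytosines each, with a median coverage of 34 to 66 reads, and 1510385 cytosines were common to all 8. Saline 1 stood apart from the rest. Among intermediate cytosines with 30 to 40 reads, 14.3% read exactly 0 or 100% in saline 1, against 0.368 to 2.87% in the other 7 libraries, and some of the members' differences are therefore given with and without saline 1. For the labelled tissue only methylation around marker promoters could be looked at, not expression. Promoter methylation of granule cell markers was 0.306 to 1.02% in cocaine mice and 0.526 to 0.581% in saline mice over the 4 genes with a value. Interneuron markers gave 19.7 to 24.0% in cocaine mice and 22.0 to 26.0% in saline mice, and astrocyte markers gave 23.6 to 32.0% in cocaine mice and 25.4 to 28.1% in saline mice. Pyramidal cell markers gave 0.260 to 0.451% in cocaine mice and 0.406 to 2.08% in saline mice, and endothelial markers gave 0.536 to 3.20% in cocaine mice and 2.15 to 3.65% in saline mice. The ranges of both groups overlapped for each of these marker lists, and oligodendrocyte and microglia markers gave no value. Pyramidal and endothelial markers were low as well as granule cell markers, so these values do not tell those cell types apart.

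The promoters of 4 members are shown because they hold the response element, its shortened form or the most complete CpG measurement. They run from 250 bases before to 50 bases after the listed start, are credited to RefSeq, and lie in GRCm38.p6, which shares its chromosome coordinates with mm10. The 4 windows are chr17:26508423-26508722 on the minus strand for Dusp1, chr1:79439977-79440276 on the minus strand for Scg2, chr13:93303507-93303806 on the plus strand for the first of 2 listed starts of Homer1, and chr10:80929841-80930140 on the plus strand for Gadd45b. Each is written 5′ to 3′ on the gene's strand, and capitals mark the CpGs at which at least 1 cytosine was measured in all 8 libraries.
Dusp1: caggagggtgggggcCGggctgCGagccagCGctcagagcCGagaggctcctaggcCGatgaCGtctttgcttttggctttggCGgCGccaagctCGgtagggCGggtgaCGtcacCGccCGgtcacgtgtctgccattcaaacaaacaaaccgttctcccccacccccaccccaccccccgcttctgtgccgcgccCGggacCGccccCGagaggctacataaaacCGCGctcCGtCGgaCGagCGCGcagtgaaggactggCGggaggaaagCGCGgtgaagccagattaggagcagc
Scg2: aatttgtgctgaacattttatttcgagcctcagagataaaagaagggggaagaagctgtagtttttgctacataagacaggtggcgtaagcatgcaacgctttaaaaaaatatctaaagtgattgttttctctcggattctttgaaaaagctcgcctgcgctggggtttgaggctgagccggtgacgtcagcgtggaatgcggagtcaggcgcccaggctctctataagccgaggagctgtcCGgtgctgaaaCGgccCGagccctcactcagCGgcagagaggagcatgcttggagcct
Homer1: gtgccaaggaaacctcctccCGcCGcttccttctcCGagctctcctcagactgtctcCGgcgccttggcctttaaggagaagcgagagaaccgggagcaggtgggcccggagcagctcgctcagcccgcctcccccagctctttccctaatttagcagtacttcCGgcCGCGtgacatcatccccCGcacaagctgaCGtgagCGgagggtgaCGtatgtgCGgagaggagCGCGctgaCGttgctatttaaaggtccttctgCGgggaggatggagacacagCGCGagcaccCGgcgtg
Gadd45b: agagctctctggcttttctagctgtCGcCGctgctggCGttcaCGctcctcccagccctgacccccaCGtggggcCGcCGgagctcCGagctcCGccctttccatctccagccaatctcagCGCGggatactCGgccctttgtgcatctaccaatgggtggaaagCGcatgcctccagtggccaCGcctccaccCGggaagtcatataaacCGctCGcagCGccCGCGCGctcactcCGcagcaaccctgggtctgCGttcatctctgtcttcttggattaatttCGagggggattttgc
The full response element, spelled TGACGTCA, occurred in the promoters of Dusp1 and Scg2. With position 0 at the start it began at -143 in Dusp1 and at -68 in Scg2, and is written here in capitals between its flanking bases.
Dusp1 element: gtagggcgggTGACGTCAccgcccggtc
Scg2 element: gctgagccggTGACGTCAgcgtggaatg
On either strand, TGACGTCA was present in 1.79% of 32851 promoters of the same length, and the shorter TGACG, which the full element also holds, in 20.8%. Homer1 carried TGACG at -56, -40 and -14 from its first start.

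The CpGs of these elements were almost free of methylation in both groups. Both cytosines of the Dusp1 element read 0% in all 4 cocaine mice. In the saline mice the plus-strand cytosine read 0, 1.69, 1.08 and 0%, and the minus-strand cytosine read 0% in all 4. The element's neighbour in Dusp1, a TGACG at -191, gave at most 1.32% in cocaine mice and 1.69% in saline mice. The CpG in the Scg2 element was not measured in all 8 libraries and is not analysed here. In Homer1 the 3 TGACG sites read 0% on both strands in cocaine 1 and cocaine 2. Cocaine 3 had 4.88, 5 and 2.56% on the plus strand and cocaine 4 had 7.41% at the site nearest the start on the minus strand. All saline mice read 0% there except saline 3, with 1.69% at that same minus-strand cytosine. The Homer1 values above 0 thus came mostly from 2 cocaine libraries, at cytosines with 26 to 98 reads.

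Across the 10 genes, measured CpGs at the listed gene starts were nearly unmethylated and most intermediate levels lay elsewhere. Of 1127 cytosines, 954 had a pooled level under 5%, 168 lay between 5% and 95%, and 5 exceeded 95%. The share under 5% was 84.6% in these genes and 47.1% over all common cytosines. Consecutive cytosines with gaps of at most 100 bp were joined into 94 runs, whose level is the percent of methylated reads. The windows of Nptx1 (Gm11762), Nrn1 (Gm38636 and Gm30177), Inhba (B230303A05Rik), Dusp1 (Gm34455) and Dusp6 (Gm34921) also touch other annotated genes, so a run there need not belong to the member alone. Of the 61 runs with at least 3 CpGs, 38 (62.3%) had a pooled level under 5%, against 21.8% of all such runs. Among 6 members with at least 4 measured cytosines in a listed promoter, all 6 promoters were under 5%, with a median of 0.230%. Over all promoters measured this way, 90.1% of 9823 were under 5% and the median was 0.441%, so low promoter methylation was common to most measured genes.

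**Figure D1:**
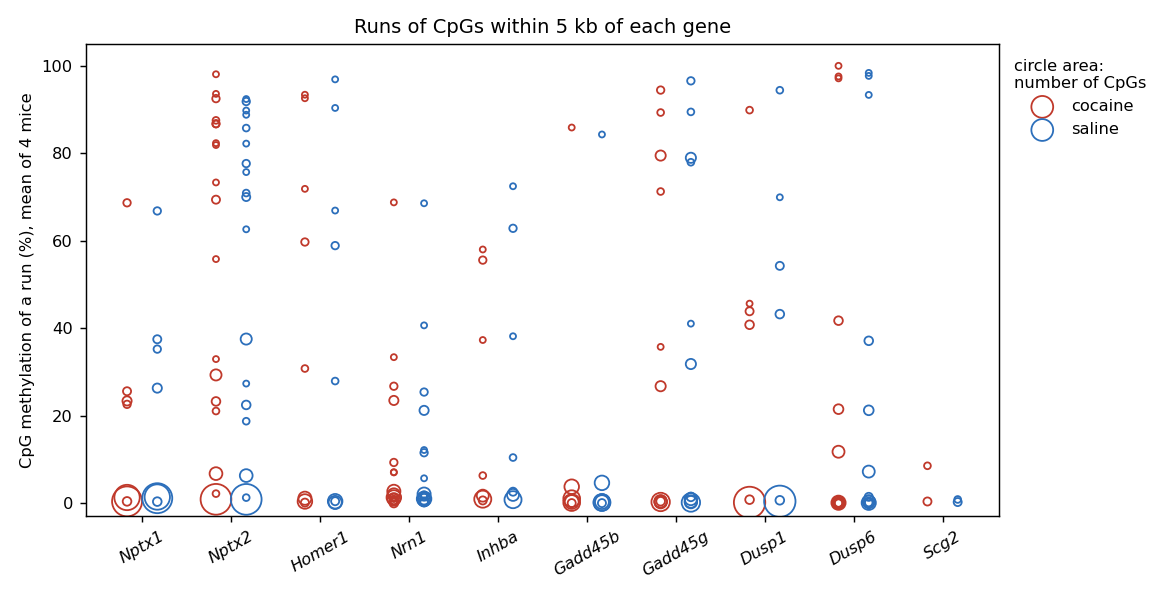
CpG methylation of all 94 runs near the 10 genes, as the mean of 4 mice in percent on the vertical axis and the genes on the horizontal axis. Red circles are cocaine mice and blue circles saline mice, with circle area rising with the number of CpGs. The largest circles, of the CpG-rich runs, sit near 0% in both groups, and the intermediate and high runs are mostly small.

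The measured starts of the genes with a listed start, and the most CpG-rich run of the other members, kept levels near 0% in both groups. The second listed start of Homer1 was not measured, since 0 of the 7 CpGs in its promoter window were common to all libraries. Nptx1 spans 119538719 to 119547820 on chromosome 11, and its run of 89 CpGs across the higher-numbered end had 0.387 ± 0.252% in cocaine mice and 1.12 ± 1.20% in saline mice (SD, n = 4 each). Saline 1 stood at 2.91% in that run and the other saline mice at 0.447 to 0.585%, and without saline 1 the difference was -0.133 points, against -0.732 points with all mice. The run of 94 CpGs at the lower-numbered end of Nptx2 (chromosome 5, 144545887 to 144557478) had 0.864 ± 0.331% in cocaine mice and 0.85 ± 0.355% in saline mice. In Dusp1 (chromosome 17, 26505591 to 26508472), 98 CpGs over the start had 0.149 ± 0.12% in cocaine mice and 0.409 ± 0.435% in saline mice. Reads summed over the cytosines of each of these 3 runs were 7045 to 15758 per library, and a read counts once at every cytosine it covers. Each difference was smaller than the spread between saline mice.

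Shorter runs were also low at the starts of other members with a listed start, and near an end of Nrn1, which has no listed start. Gadd45b (chromosome 10, 80930091 to 80932204) had 0.123 ± 0.104% in cocaine mice and 0.124 ± 0.146% in saline mice over 26 CpGs. Its highest promoter cytosine, at -55 from the start, read 0% in all 4 cocaine mice and 15.6, 0, 1.22 and 0% in saline mice. Inhba (chromosome 13, 16004256 to 16031609) has its listed start inside the gene span, where 27 CpGs had 0.897 ± 0.533% in cocaine mice and 0.776 ± 0.317% in saline mice. Gadd45g (chromosome 13, 51846675 to 51848475) had 0.386 ± 0.395% in cocaine mice and 0.215 ± 0.256% in saline mice over 13 CpGs. Dusp6 (chromosome 10, 99263231 to 99267489) read 0.326% in cocaine 3, 0.248% in saline 3 and 0% in the other 6 mice over 18 CpGs. Nrn1 (chromosome 13, 36725622 to 36734477) had 1.28 ± 0.510% in cocaine mice and 0.972 ± 0.453% in saline mice over 19 CpGs near its higher-numbered end. Scg2 (chromosome 1, 79434366 to 79440026) read 1.47% in cocaine 4, 0.515% in saline 2 and 0.431% in saline 3 over 4 CpGs, and 0% in the other 5 mice.

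Homer1 (chromosome 13, 93303757 to 93405129) and Gadd45b had unmethylated runs with scattered methylated reads in some cocaine mice. The 15 CpGs over the first Homer1 start had 0.0987, 0.338, 2.33 and 1.71% in cocaine mice and 0.0526, 0, 0.28 and 0.235% in saline mice. Cocaine 2, cocaine 3 and cocaine 4 were above all saline mice and cocaine 1 was not, so the groups overlapped. The difference of 0.976 points was 0.573 points without cocaine 3. In cocaine 4 the highest cytosine of that Homer1 run, 14 bases past the start, reached 18.5%, against 0% in the other 7 mice. Upstream of Gadd45b, 26 CpGs at 80928638 to 80929120 had 0.354, 2.22, 1.47 and 0% in cocaine mice and 0, 0.0983, 0.166 and 0.360% in saline mice. Cocaine 2 and cocaine 3 were the high mice there, and cocaine 4 was at 0, and the difference of 0.854 points was 0.451 points without cocaine 2. Over all member runs of at least 3 CpGs under 5%, the largest difference between group means was 2.00 points in size.

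**Figure D2:**
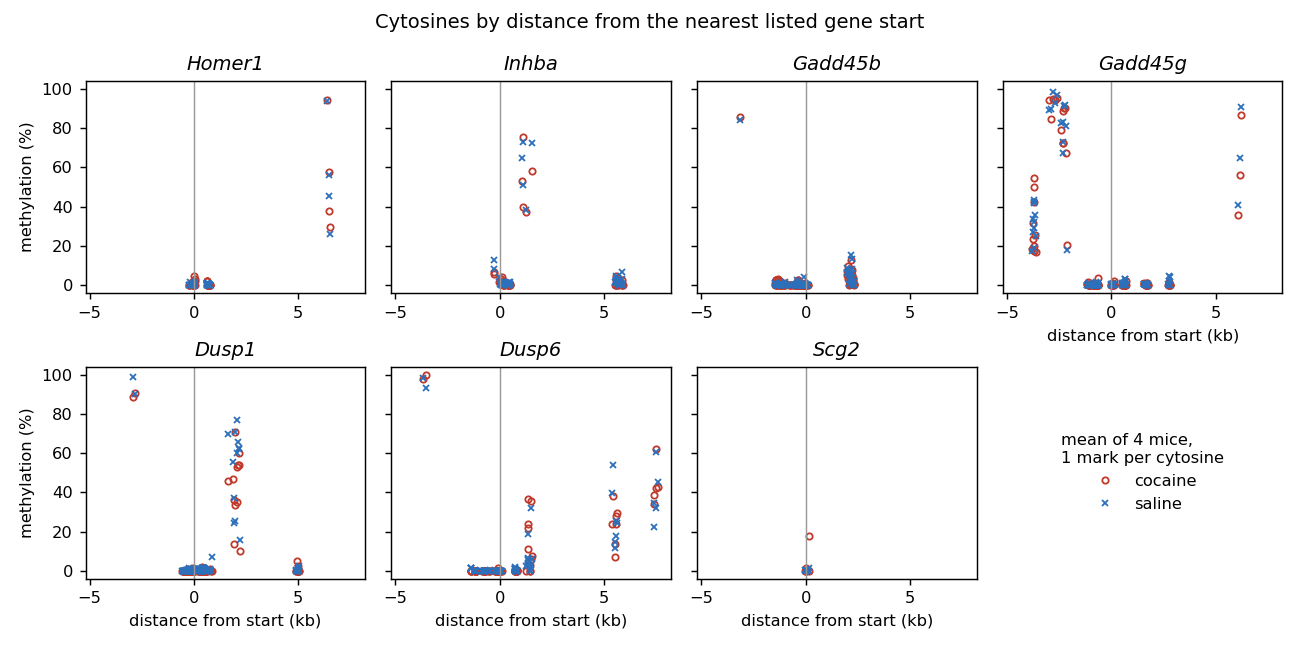
Methylation of single cytosines in percent, as the mean of 4 mice, against the distance from the nearest listed start in kb, for the 7 members with a listed start. Red circles are cocaine mice and blue crosses saline mice; cytosines beyond 8 kb are not drawn. Marks of both groups at the starts lie near 0%, and most of the higher levels lie farther away.

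The comparison between cocaine and saline mice was made by quasi-binomial regression on the runs with at least 3 CpGs and a pooled level from 5% to 95%. Of the members' runs, 22 met this filter, in 8 genes, with 36 to 966 reads per run and mouse, summed over the run's cytosines. Gadd45b and Scg2 had no such run. After Benjamini-Hochberg adjustment over all 92484 tested runs, 0 of the 22 passed an adjusted p of 0.05, with adjusted p values of 0.876 to 0.998; no run in the genome was called either (0%). At an unadjusted p under 0.05 stood 3 of the 22, where 5.65% of all tested runs did. The limma fit on logit levels gave 1 of 22 at that unadjusted threshold and 0 adjusted, and its share over all tested runs is not given here. Mean level was lower in the cocaine group in 10 of the 22 runs (45.5%) and higher in 12, whereas 61.8% of all tested runs were lower in cocaine mice. The median difference was 0.356 points over the members' runs and -1.06 points over all tested runs, and the median size of a difference was 2.35 and 2.64 points. The members' differences ran from -12.6 to 9.11 points. The split changed with the mice kept, and it is given here without saline 1 only, not without each other mouse. Leaving out saline 1, an alternative chosen after the data were seen, gave 15 of the 22 runs (68.2%) lower and 7 higher. Over all tested runs 63.1% were lower. The median difference was then -1.31 points over the members' runs and -1.18 points over all tested runs, and the members' range was -19.6 to 7.60 points.

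**Figure D3:**
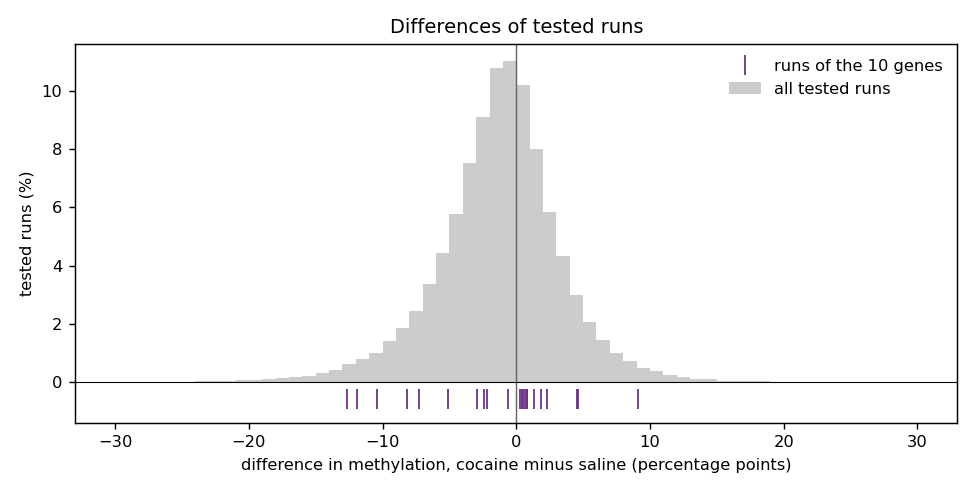
Difference in methylation, cocaine minus saline in percentage points, on the horizontal axis. Grey bars give the percent of all 92484 tested runs in bins of 1 point, with runs beyond 30 points held in the end bins, and the purple ticks under them are the 22 tested runs of the members, which lie between -12.6 and 9.11 points inside the range of the grey bars.

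Nptx2 had the most runs of any member, 18, and its gene body held both high and low levels. The run of 3 CpGs at 144551933 to 144551993 had 88.2, 85.8, 82.5 and 90.6% in cocaine mice and 73.1, 75.4, 83.8 and 78.4% in saline mice. Saline 3 lay above cocaine 3, so the groups overlapped, and the difference of 9.11 points had an unadjusted p of 0.0259 and an adjusted p of 0.876. Without saline 1 it was 7.60 points. Most of it came from the middle cytosine, 144551948, which had 100, 82.0, 65.0 and 78.5% in cocaine mice and 19.4, 52.3, 80.8 and 64.9% in saline mice. The cytosines on either side of it differed by 3.56 and -3.24 points. Another pair of CpGs inside Nptx2, at 144548927 to 144548936, too short to enter the test, had 82.5, 83.3, 90.6 and 90.3% in cocaine mice and 50, 80, 79.4 and 74.2% in saline mice. All cocaine mice were above all saline mice in this pair, by 15.8 points on average and by 8.81 points without saline 1. Fitted with runs of any size and level, a choice made after the data were seen, the pair had an unadjusted quasi-binomial p of 0.0650 and an adjusted p of 0.760. The separation came from 144548927, which differed by 28.7 points (19.4 without saline 1), while the groups overlapped at 144548936 with a difference of 2.85 points. Joined across gaps of up to 200 bp, the pair became part of a longer run with a difference of 5.25 points. A run of 10 CpGs at 144556295 to 144556500 had 29.3 ± 10.8% in cocaine mice and 37.5 ± 4.15% in saline mice (unadjusted quasi-binomial p = 0.109). The runs on either side of it, at 144555777 to 144555785 and at 144557187 to 144557227, differed by 1.76 and 0.804 points. The 3 CpGs past that end of Nptx2, at 144561569 to 144561615, had 92.5 ± 3.93% in cocaine mice and 91.8 ± 3.87% in saline mice.

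Nptx1, the other secreted pentraxin, had 4 tested runs, all inside the gene. Its widest differences were of the opposite sign to the Nptx2 run at 144551933 to 144551993, at 9.11 points. They had the same sign as the Nptx2 run at 144556295 to 144556500, at -8.21 points. Both of these Nptx1 differences rested on a large spread between mice. The 4 CpGs at 119543123 to 119543295 had 30, 25.7, 10.2 and 36.4% in cocaine mice and 14.5, 31.6, 43.4 and 60.4% in saline mice. The groups overlapped, with saline 1 the lowest saline mouse, and the difference of -11.9 points had an adjusted p of 0.912. Without saline 1 it was -19.6 points, with an unadjusted quasi-binomial p of 0.00881 and an adjusted p of 0.778, and without saline 4 it was -4.24 points. In the run at 119544401 to 119544436, saline 1 was instead the highest mouse, at 62.7%, and the groups differed by -12.6 points with an adjusted p of 0.929, and by -3.45 points without saline 1. Outside the gene, the cytosine at 119548700 had 0, 0, 0 and 3.13% in cocaine mice and 35, 6.98, 9.84 and 7.55% in saline mice. Those groups did not overlap, and saline 1 again stood highest; the difference was -14.1 points, and -7.34 points without saline 1.

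Inhba had a single cytosine at 16013416, 1565 bases past the listed start, with 60.6, 58.1, 53.3 and 60% in cocaine mice and 73.9, 73.5, 72.4 and 70% in saline mice. All cocaine mice were below all saline mice at this ligand gene, by 14.5 points, with 23 to 40 reads per mouse. Nearer the start, the single CpG at 16013099 had 37.3 ± 3.52% in cocaine mice and 38.2 ± 19.6% in saline mice. The tested run of Inhba, 3 CpGs at 16012922 to 16012980, had 55.6 ± 9.29% in cocaine mice and 62.8 ± 11.2% in saline mice, with an adjusted p of 0.933. The groups overlapped at both of these neighbours. Saline 1 was the highest mouse of the tested run at 77.8%, and the difference of -7.27 points was -2.29 points without it.

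Scg2, the granin gene, was the most thinly measured member, with 6 cytosines common to all libraries of 27 seen in at least 1. One pair of CpGs, at 79439843 and 79439872 inside the gene, had 13.8, 7.03, 6.25 and 7.02% in cocaine mice and 0, 1.08, 1.12 and 1.11% in saline mice. Every cocaine mouse was above every saline mouse, with means of 8.53 ± 3.55% in cocaine mice and 0.827 ± 0.552% in saline mice (SD, n = 4 each). The difference of 7.70 points came wholly from 79439843, which lies 183 bases past the start. There 17 of 59, 9 of 64, 3 of 22 and 8 of 57 reads were methylated in cocaine mice, against 0 of 35, 1 of 46, 1 of 44 and 1 of 45 in saline mice. The reads at 79439872 were unmethylated in all 8 mice, and so were nearly all those of the 4 start CpGs. Fitted with runs of any size and level, a choice made after the data were seen, the pair had an unadjusted p of 0.00205 and an adjusted p of 0.756. Leaving out cocaine 1, the highest mouse, gave 5.94 points, and joining CpGs over gaps of up to 200 bp merged the pair with the start and gave 2.73 points. Counting error at that cytosine was wide, since the 95% Wilson interval of cocaine 3 was 4.75 to 33.3%, that of saline 3 was 0.402 to 11.8%, and the 0 of 35 reads in saline 1 had an upper bound of 9.89%. Such intervals cover counting error only.

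The same wider fit covered all 94 member runs. At an unadjusted p under 0.05 stood 9 runs, which is 9.57% against 6.59% of all 259049 runs, and the smallest adjusted p was 0.756. Groups did not overlap in 3 runs, the Nptx2 pair, the Inhba cytosine and the Scg2 pair, which is 3.19% against 2.85% of all runs. Single cytosines with groups that did not overlap numbered 6 of 1127, or 0.532%, against 1.50% of all common cytosines. A cytosine at 0% in mice of both groups counts as overlapping, and 84.6% of the members' cytosines were under 5%, against 47.1% of all. The 2 shares are therefore on unlike bases, and the lower one is not read as a result about the members. Cocaine mice were higher at 4 of the 6 and lower at 2. The 4 were 144548927 and 144557187 in Nptx2, 99264572 in Dusp6 and 79439843 in Scg2, and the 2 were 119548700 near Nptx1 and 16013416 in Inhba.

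**Figure D4:**
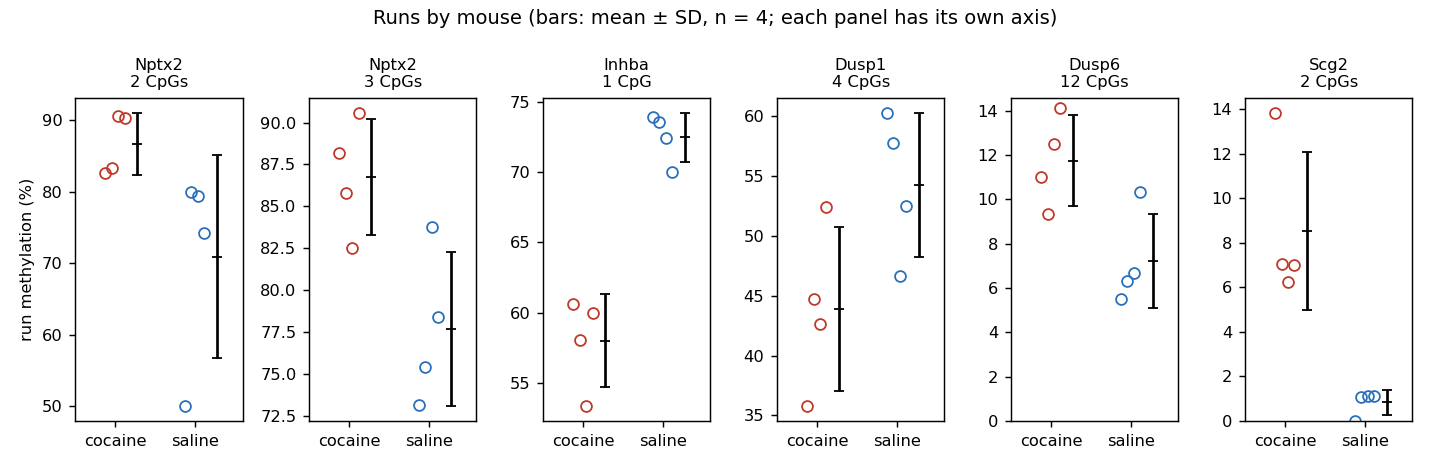
Methylation of 6 runs in percent, with 1 circle per mouse, cocaine mice in red left of saline mice in blue, and the mean ± SD (n = 4) beside them; each panel has its own axis, which need not start at 0. In the Nptx2 pair, the Inhba cytosine and the Scg2 pair the groups do not overlap, and in the longer Nptx2, Dusp1 and Dusp6 runs they do.

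In the phosphatase genes, the tested run of smallest p was lower in cocaine mice in Dusp1 and higher in Dusp6, and neither passed adjustment. In Dusp1, 4 CpGs at 26506244 to 26506393, 2079 bases past the start, had 35.8, 44.7, 42.6 and 52.4% in cocaine mice and 60.2, 57.7, 46.7 and 52.4% in saline mice. The groups overlapped, since cocaine 4 stood above saline 3, and the difference of -10.4 points had an unadjusted p of 0.0405 and an adjusted p of 0.876. With a minimum of 20 reads per cytosine it was -6.41 points, and without saline 1 it was -8.41 points. The minus-strand cytosine 26506393 carried the widest gap, with 8.11, 67.2, 48.4 and 17.6% in cocaine mice and 100, 88.1, 65.7 and 54.5% in saline mice. Its lowest depth was 17 reads. The plus-strand cytosine of the same CpG, 26506392, had 60.4, 41.6, 44.4 and 65.2% in cocaine mice and 62.1, 55.2, 56.6 and 66.7% in saline mice. Cocaine minus saline was -41.8 points at 26506393 and -7.25 points at 26506392. A lone CpG nearer the start, at 26506819, had 37.5, 52.6, 47.9 and 44.4% in cocaine mice and 87.1, 65.3, 51.1 and 76.2% in saline mice. The groups overlapped at all of these cytosines. Between the run and the lone CpG, 5 CpGs at 26506494 to 26506603 had 40.8 ± 10.2% in cocaine mice and 43.2 ± 6.70% in saline mice, with an adjusted p of 0.990.

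In Dusp6 the run of 12 CpGs at 99264511 to 99264764, 1280 bases past the start, had 11, 9.34, 12.5 and 14.1% in cocaine mice and 5.52, 6.31, 6.69 and 10.3% in saline mice. Saline 4 lay above cocaine 2, and the difference of 4.54 points had an unadjusted p of 0.0341 and an adjusted p of 0.876. The 12 cytosines did not contribute equally. The third, 99264572, had 42.1, 33.3, 46.9 and 25% in cocaine mice and 18.2, 14.8, 22.4 and 20% in saline mice. The fourth, 99264584, had 15.8, 20, 34.4 and 25% in cocaine mice and 0, 3.70, 3.03 and 20% in saline mice. The sixth, 99264604, had 10.3, 20, 15.6 and 41.7% in cocaine mice and 0, 3.70, 1.49 and 20% in saline mice. The groups were apart at the third and overlapped at the fourth and the sixth. These 3 lie on the plus strand, whereas the 6 minus-strand cytosines of the run differed by -0.333 to 3.25 points. Further runs past Dusp6, at 99268607 to 99268834 and at 99270604 to 99270819, differed by 0.261 and 4.61 points with adjusted p values of 0.991 and 0.985, and by -0.633 and 1.35 points without saline 1.

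**Figure D5:**
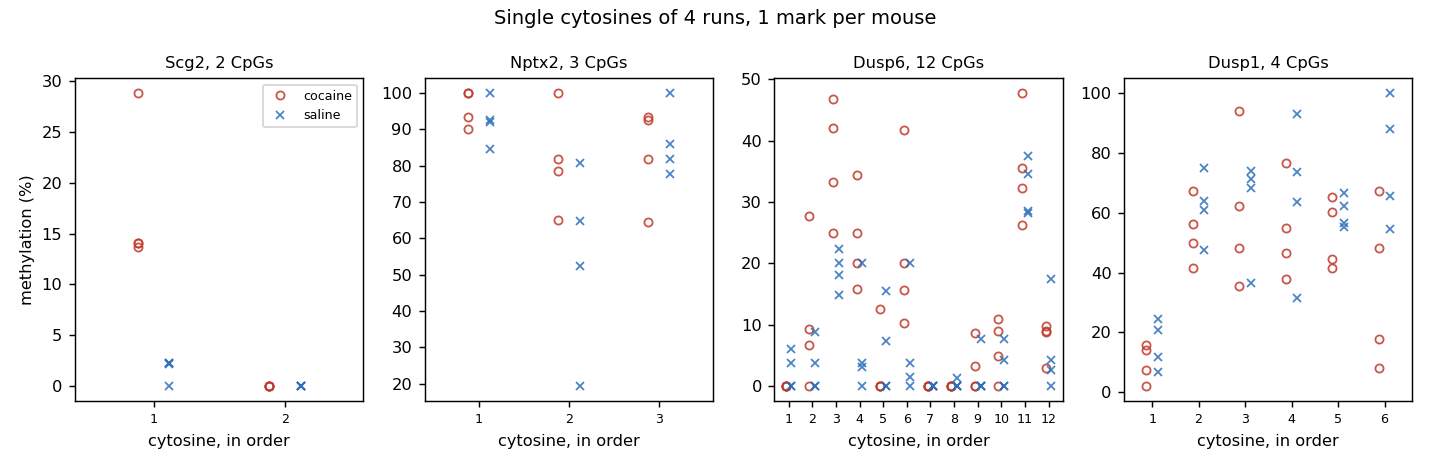
Methylation in percent of each cytosine, in order of position, in a run of Scg2, Nptx2, Dusp6 and Dusp1, with 1 mark per mouse, red circles for cocaine mice and blue crosses for saline mice. In the Scg2 run the first cytosine separates the groups and the second is at 0% in all 8 mice; in the Dusp6 run the third cytosine separates them.

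In Homer1, Nrn1 and Gadd45g no tested run had an unadjusted p under 0.05. The tested Homer1 run, 3 CpGs at 93314407 to 93314543, had 59.7 ± 11.7% in cocaine mice and 58.9 ± 7.24% in saline mice, with an adjusted p of 0.998. Single CpGs deep in Homer1 were high, such as 93399561 with 93.4 ± 2.80% in cocaine mice and 96.9 ± 2.79% in saline mice, where the groups overlapped. In Nrn1 the 3 CpGs at 36728417 to 36728452 had 9.29 ± 3.18% in cocaine mice and 11.5 ± 7.57% in saline mice, with an adjusted p of 0.949, and saline 1 was the highest mouse at 22.4%. The difference of -2.23 points turned to 1.39 points without saline 1. The other tested Nrn1 runs differed by 2.27 and 1.33 points, and by 0.298 and -1.26 points without saline 1. In Gadd45g, 8 CpGs at 51842872 to 51843068, at -3607 from the start, had 26.7 ± 2.68% in cocaine mice and 31.8 ± 6.71% in saline mice, with an adjusted p of 0.917. The other tested Gadd45g run, 8 CpGs at 51844281 to 51844534, had 79.5 ± 3.26% in cocaine mice and 79.0 ± 5.96% in saline mice. A pair of CpGs past Gadd45g, at 51852857 to 51852883 and too short to enter the test, had 74.0, 65.8, 74.0 and 71.2% in cocaine mice and 84.1, 78.7, 71.4 and 77.7% in saline mice, with overlap. Its difference of -6.69 points was -4.65 points without saline 1. Gadd45b, with 5 of its 6 runs under 5%, had its highest level at a lone CpG at 80926962, upstream of the gene, with 85.9 ± 15.0% in cocaine mice and 84.3 ± 8.89% in saline mice.

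Summed over whole gene windows, 4 members had a level in the tested range, and none was past an unadjusted p of 0.05, where 5.12% of 14466 gene windows were; no window in the genome was called (0%). Homer1 had 9.92 ± 4.49% in cocaine mice and 8.40 ± 2.39% in saline mice, a difference of 1.51 points, and Gadd45g had 12 ± 3.75% in cocaine mice and 13.5 ± 3.08% in saline mice, a difference of -1.49 points. Nptx2 and Dusp6 differed by 0.0577 and 0.116 points, and the adjusted p values of the 4 were 0.945 to 0.999. These sums weight each cytosine by its reads, and Homer1 in cocaine 4 had 16.1% weighted by reads and 10.1% as an unweighted mean of its cytosines. The Scg2 window was under the tested range, with 5.41, 2.67, 1.42 and 3.11% in cocaine mice and 0, 0.697, 0.623 and 0.376% in saline mice. Those groups did not overlap, through the cytosine at 79439843 described above.

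The families and partners of the 10 genes numbered 92 further genes, of which 73 had a tested run. Of their 446 tested runs, 19 with lower and 1 with higher levels after cocaine stood at an unadjusted p under 0.05, which is 4.48% against 5.65% of all tested runs, and 0 passed adjustment. Lower levels in cocaine mice were also the more common direction over all tested runs whatever their p, at 61.8%. The direction over all runs at an unadjusted p under 0.05 is not given here, so the 2 shares are at unlike thresholds. Among the pentraxins and their AMPA receptor partners 2 of 23 runs were lower at that threshold, among the Homer family and partners 8 of 145, and among the MAP kinases 3 of 32. Among the dual-specificity phosphatases 2 of 21 runs were lower, in the activin and inhibin pathway 1 of 90, and among other late activity-regulated genes 3 of 65. The Gadd45 family and DNA demethylation genes had 1 higher run of 45, and the neuritin family (1 run) and the granins and prohormone processing genes (24 runs) had 0. The pentraxin receptor gene Nptxr had 9.09, 2.94, 10.8 and 27.5% in cocaine mice and 44.4, 31.7, 22.0 and 48.5% in saline mice over 3 CpGs at 79800779 to 79800878 on chromosome 15, a difference of -24.1 points with an adjusted p of 0.876. Cocaine 4 lay above saline 3 there. The activin receptor gene Acvr2b had 49.4 ± 5.49% in cocaine mice and 63.2 ± 2.24% in saline mice over 5 CpGs at 119408010 to 119408169 on chromosome 9, without overlap, and again an adjusted p of 0.876. Dusp4, another MAP kinase phosphatase, had 0, 0.531, 0 and 0% in cocaine mice and 22.0, 13.2, 1.33 and 1.66% in saline mice over 14 CpGs at 34807789 to 34807866 on chromosome 8, and the level of saline 1 and saline 2 set its mean. Without saline 1 its difference was -5.27 points, against -9.42 with all mice, and in the longer run made with gaps of up to 200 bp it was -0.192 points. In the other families, the smallest p belonged to Shank3 (difference -6.16 points), Nrn1l (-2.13), Mapk7 (-7.20), Scg5 (-7.90), the sorting receptor gene Sorcs3 (-8.48) and the MAP kinase kinase kinase gene Map3k4 (7.98).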

How the data were processed

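Reduced representation bisulfite libraries of 4 cocaine and 4 saline mice were grouped and numbered by their titles. Tools were bcl2fastq and Bismark 22.1 with build mm10, per the submitters' processing notes. Whether reads were trimmed or duplicates removed is not given in the sources used here. The deposited files give, per CpG cytosine and strand, a methylation level, which is a fraction from 0 to 1 (multiplied by 100 here), and a coverage, which is a count of reads of at least 10. Level times coverage was whole, within 1e-06 per read, at 100% of cytosines in each deposited file, so methylated reads were recovered. The labels name no molecular identifiers, so counting errors understate the error. The lowest chi-square per run between libraries was 4.74, so each was kept as a sample, and the design text gives 4 mice per group.

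Common cytosines (at least 10 reads in all 8) were joined across gaps of at most 100 bp. Gene spans, starts and promoter sequences came from RefSeq tables of GRCm38.p6, which give no exons. Runs of at least 3 CpGs and gene windows of at least 5 cytosines, both with pooled level 5% to 95%, were fitted by quasi-binomial logistic regression, with dispersion moderated by limma 3.58.1 (R 4.3.3; trend on coverage, floor of 1), an F test and Benjamini-Hochberg adjustment over all tested features. Runs were called at an adjusted p under 0.05 and 10 points, windows at 5 points. The script was checked on simulated reads. Alternatives were a minimum of 20 reads, gaps of 200 bp, other run filters, summed strands, limma on logit levels, a replicate block and leaving out each mouse. All 10 members were named, with the run of smallest p, of most CpGs, nearest the start and any with groups apart, and the smallest p per family. The members and lists were chosen with earlier results of these data known. Promoter sequences of the other members are not used here.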

Additional observations from a re-analysis of the deposited data

Results flagged for a closer look

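Among 86 groups of 4 mice, 10 (11.6%) had a mouse separated from the other 3 by more than Dixon's critical share of the group's range. Chance gives about 1 in 20 for normally distributed values. That rate does not hold for runs near 0%, where 3 mice at 0% and any methylated read in the other mouse give a flag. The 11.6% is therefore not read as an excess. In Scg2 the pair of CpGs at 79439843 to 79439872 gave 2 of them, since cocaine 1 had 13.8% against 6.25 to 7.03% in the other cocaine mice, and saline 1 had 0% against 1.08 to 1.12% in the other saline mice. In the run across the end of Nptx1 saline 1 had 2.91%, with the other saline mice at 0.447 to 0.585%. The Dusp1 window stood at 5.88% in saline 2 and at 3.94 to 4.20% in the other saline mice. Nrn1 had 0.530% in cocaine 3 and 1.47 to 1.66% in the other cocaine mice over 19 CpGs. The remaining flags were single mice above 0 where the other 3 of their group read 0%. They were cocaine 4 in the Homer1 run at 93304369 to 93304525 (1.47%), cocaine 4 in the Scg2 start run (1.47%), cocaine 3 (0.326%) and saline 3 (0.248%) in the Dusp6 start run, and cocaine 2 in the Dusp4 run (0.531%).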

How the results depend on the processing

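For the 43 named runs and windows, leaving out 1 mouse reversed the direction in 11 of 344 values. Other alternatives reversed it in 3 of 355 and moved 6 by more than the spread. Reversals, here and in the list below, were counted only for runs and windows in the tested range. Elsewhere a value counted as moved only when it shifted beyond the spread. Changes of sign near 0 are therefore left out, such as the Gadd45b start run, at -0.000584 points and at 0.0637 points without saline 1. No adjusted p fell under 0.05, the smallest being 0.0808. Correlations of same-numbered mice were -0.0169 to 0.0772, and those of differently numbered mice were -0.139 to 0.0644. Such values near 0 gave no clear sign of pairing by number but cannot exclude it. With the number as a block, 1 run in the genome was called, against 0 without the block, and 0 gene windows either way. Member runs at an unadjusted p under 0.05, 3 in the report, were 1 with gaps of 200 bp, 1 with limma on logit levels, 5 without the filter on level, 5 with runs of any size and 9 with both (chosen after seeing the data), and 0 (without saline 2) to 3 on leaving out a mouse, with 1 without cocaine 3. The number of runs fitted differs between settings. Over all runs the share was 5.65% in the main fit and 6.59% with both changes, where the members had 9.57%. Shares over all runs are not given here for the other settings, so their counts are not read as a result about the members. Member runs without overlap, 3 in the report, were 4 to 8 with 1 mouse fewer, which by construction overlaps less often. Direction reversed for the Homer1 run (-0.544 points by unweighted means, and -4.46 to 4.84 on leaving out a mouse, against 0.826), the Scg5 run (2.37 at 20 reads, against -7.90), the Nptx2 window (-0.247 over the span alone, and -1.61 to 1.09 on leaving out a mouse, against 0.0577), the Nrn1 run (-4.42 to 1.39, positive without saline 1, against -2.23), the Homer1 window (-0.536 without cocaine 4, up to 2.78) and the Dusp6 window (-0.872 without cocaine 4, up to 1.01); the cause was not tested. Depth limits single cytosines most, with 10 reads as the least.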
